A study of Mus musculus with 10 samples.

Results

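Radial glia are the neural precursors of the embryonic cortex. Their cell bodies line the ventricle, a long process reaches the pial surface, and they give rise to neurons directly or through intermediate progenitors. They are recognised by intermediate filaments of the nestin and vimentin type, by a glial glutamate transporter, by lipid carriers and by surface and secreted proteins that astrocytes later share. The 10 genes described here are Nes, Vim, Fabp7, Slc1a3, Prom1, Hopx, Ednrb, Dbi, Ptn and Ddah1, taken from a list of radial glia structural and metabolic genes. All 10 were measured, out of 22180 genes with a probe set that carried 1 gene symbol. Vim had 2 such probe sets, of which the one with the higher mean was used, and each of the other genes had 1.

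The RNA came from cortices of CD1 mouse embryos at embryonic day 12 to 13 and was read on Mouse Gene 2.0 ST arrays (Affymetrix). In 3 samples (4ET-IP 1, 2 and 3) it had been precipitated with 4E-T, in 3 (IgG-IP 2, 3 and 4) with control IgG, and 4 samples (input 1 to 4) held total RNA. 4E-T is a partner of the cap-binding factor eIF4E that is found in P-bodies and keeps bound mRNAs from being translated. All samples were of the same strain and age, and the labels name no genotype, transgene or treatment. The design text calls the replicates biological, but the labels do not say whether embryos were pooled or whether samples of equal number came from the same cortices. In the 3 inputs numbered 2 to 4 the cortical transcription factor genes Emx2, Lhx2 and Pax6 lay at 8.95 to 9.21, 7.88 to 8.02 and 7.44 to 7.86, above the array medians. The progenitor gene Eomes (8.91 to 9.17) and the neuronal gene Tbr1 (8.41 to 8.87) did too.

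All values are RMA log2 intensities, so a difference of 1 is a doubling. RMA makes levels relative within an array, so how much RNA each precipitation yielded was not compared. In whole cortex, fewer cells of a type and less RNA per cell cannot be told apart. The medians of input 1 and 4ET-IP 1 were 3.54 and 3.52, against 4.33 to 4.54 on the other 8 arrays, and these 2 are called the lower-scale arrays. Differences come from a limma fit of all 10 arrays with terms for group and for the lower-scale arrays, and errors are standard errors of that fit. A gene is said to be called, or to have risen or fallen, at a Benjamini-Hochberg adjusted p under 0.05 over all genes. Of all calls, 72.1% were higher in 4ET-IP over IgG-IP, 54.0% in 4ET-IP over input and 36.9% in IgG-IP over input. These shares were 52.5%, 41.7% and 26.7% with group as the only term and 92.8%, 69.6% and 12.1% with arrays centred on their medians. The median difference of all genes was 0.03, 0.04 and 0.03 in the fit used here. It was -0.19, -0.02 and 0.20 with group as the only term, 0.25, 0.11 and -0.11 after centring, and 0.14, 0.09 and -0.04 after quantile normalization of the 10 arrays.

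The 3 comparisons asked which RNAs had a higher share after precipitation with 4E-T than with IgG, and how each precipitate differed from total RNA. Nes and Slc1a3 rose and Ddah1 fell in 4ET-IP against IgG-IP, while the other 7 genes were not called. That is 3 of 10 called, where 10.5% of all genes were (7.57% higher and 2.92% lower). Against input, Nes and Ednrb rose in 4ET-IP and Vim, Dbi, Hopx and Ptn fell, 6 of 10 called against 19.3% of all genes (10.4% higher and 8.86% lower). In IgG-IP, Vim, Dbi and Hopx fell against input and Ddah1 rose, 4 of 10 called against 16.6% of all genes (6.14% higher and 10.5% lower). These shares are over all genes, dim ones included, and all 10 genes lay above the median level, so genes of like level were not the yardstick. When only genes above the median level were tested, 2896, 4871 and 4143 were called in the 3 comparisons, with 3, 8 and 5 of the 10. More genes were thus called out of fewer tested. The shares called among genes of like level were therefore higher than 10.5%, 19.3% and 16.6%, which are too low a yardstick for the 10. The median difference of the 10 genes was 0.16, -0.22 and -0.16 in these comparisons, against 0.14, 0.05 and -0.06 for genes above the median level. Called genes of the list went both ways in each comparison. The 2 comparisons with input share the same input arrays, and those of 4ET-IP share the same 4ET-IP arrays. The groups lay apart on the 8 arrays of common scale for 3 genes higher and 3 lower in 4ET-IP over IgG-IP (23.0% and 15.1% of all genes did), 4 and 5 in 4ET-IP over input (25.5% and 20.2%), and 3 and 4 in IgG-IP over input (14.3% and 16.3%). With group as the only term, 0, 2 and 1 of the 10 were called, against 1.35%, 6.14% and 5.44% of all genes, so 3 of the 13 calls were kept, those of Nes and Vim in 4ET-IP over input and of Vim in IgG-IP over input. The other 10 then had adjusted p from 0.0642 to 0.286. In a fit of the 8 arrays 12 of the 13 were kept.

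**Figure D1:**
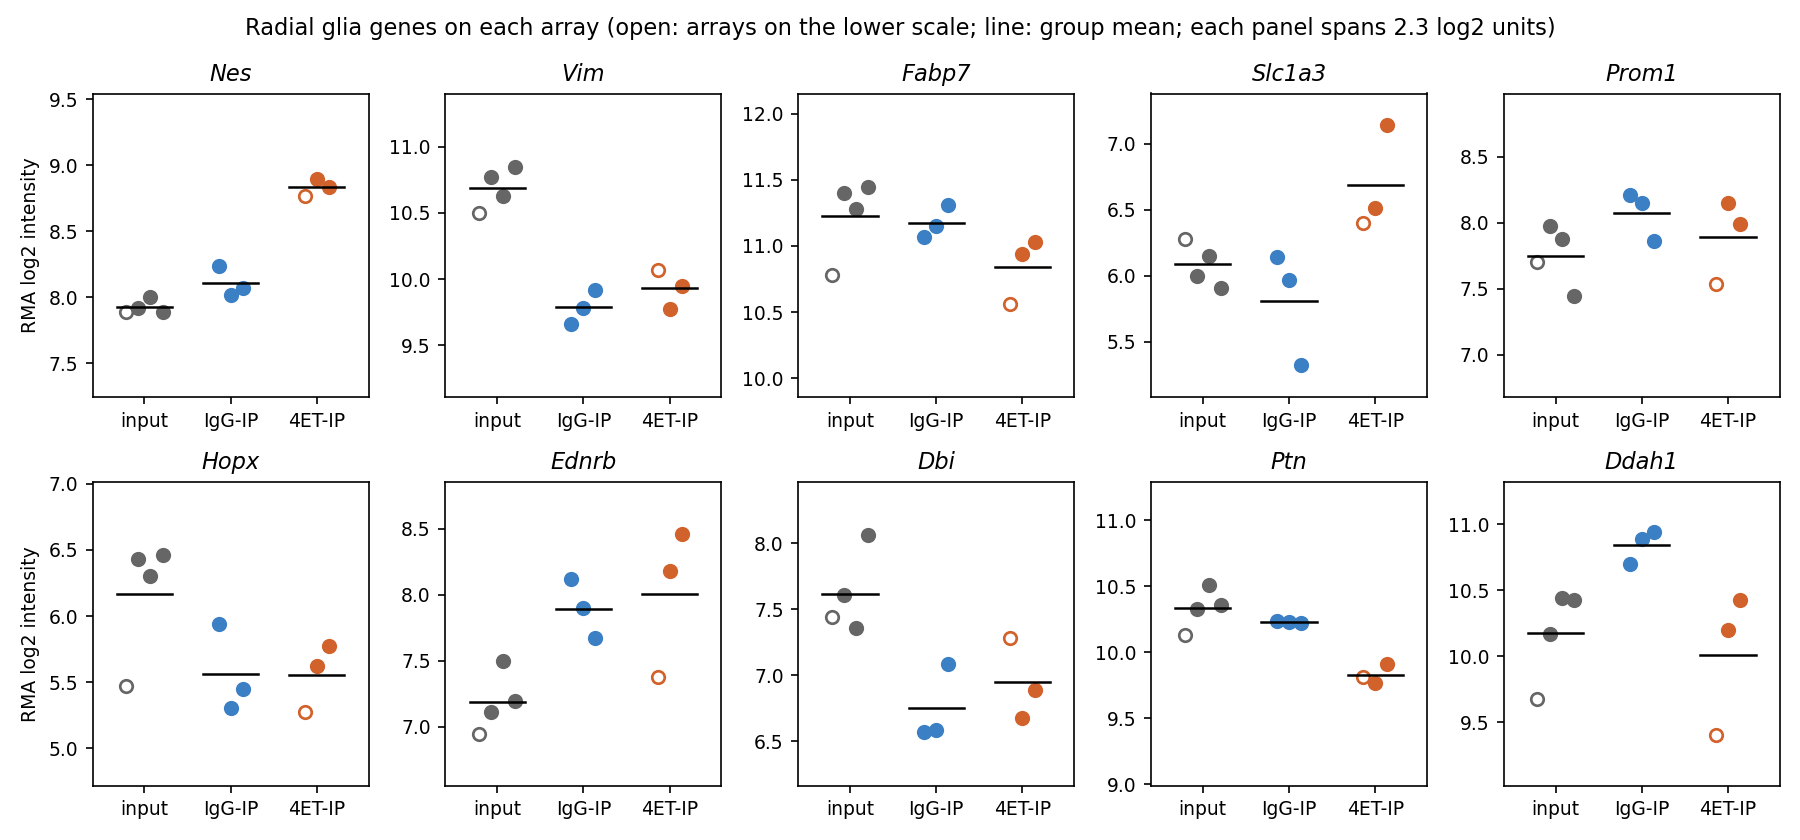
RMA log2 intensity (vertical axis) of each of the 10 genes on each of the 10 arrays, by group, with a line at the group mean; open circles are the lower-scale arrays, input 1 and 4ET-IP 1. Nes is at 8.77 to 8.90 in 4ET-IP and at or below 8.24 in all other samples, while Vim is at 10.50 to 10.85 in input and at or below 10.07 in both precipitates.

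Nes encodes nestin, an intermediate filament protein that assembles together with vimentin in neural precursors. Its level was 8.77, 8.90 and 8.84 in 4ET-IP 1 to 3, 8.24, 8.02 and 8.07 in IgG-IP 2 to 4, and 7.89, 7.92, 8.0 and 7.89 in input 1 to 4. Every 4ET-IP sample was above every other sample, and the lower-scale arrays did not stand apart from their groups. Nes was higher by 0.75 ± 0.13 (SE) in 4ET-IP than in IgG-IP, or 1.68-fold (limma adjusted p = 0.00517). It was higher by 0.92 ± 0.12 in 4ET-IP than in input, or 1.89-fold (adjusted p = 3.24e-04), and 97.1% of all genes had a lower difference. The difference between IgG-IP and input was 0.17 ± 0.12 (95% interval -0.10 to 0.44), and it was not called (adjusted p = 0.434). It turned to -0.13 when arrays were centred on their medians. Leaving out any 1 array kept both calls of Nes, with differences of 0.71 to 0.82 over IgG-IP and 0.89 to 0.94 over input. The call over IgG-IP ended with group as the only term (0.73, adjusted p = 0.101), and centring raised the difference to 1.17.

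Vim encodes vimentin, the partner filament of nestin. It had 10.07, 9.77 and 9.95 in 4ET-IP 1 to 3, 9.66, 9.78 and 9.92 in IgG-IP 2 to 4, and 10.50, 10.77, 10.63 and 10.85 in input 1 to 4. Both precipitates lay below all 4 inputs and overlapped each other. Vim fell by 0.76 ± 0.14 on the log2 scale in 4ET-IP against input (adjusted p = 0.00288), which is 1.69-fold lower. In IgG-IP it fell by 0.91 ± 0.15 against input (adjusted p = 0.00138), which is 1.88-fold lower. The precipitates differed by 0.15 ± 0.16 (4ET-IP minus IgG-IP, 95% interval -0.20 to 0.50, adjusted p = 0.638). The fall in 4ET-IP lost its call when arrays were centred on their medians (-0.63, adjusted p = 0.150) or quantile normalized (-0.55, 0.0536), both with group as the only term. The second Vim probe set ran from 9.66 to 10.18 in input, 8.50 to 9.06 in 4ET-IP and 8.44 to 9.08 in IgG-IP, again with the precipitates below input.

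In 4ET-IP against input Nes rose and Vim fell, and the pair was also read within each array. The lower-scale arrays did not shift all genes alike, so this does not remove their scale. This pair was chosen after its values had been seen, and only its change between groups is read, since intensities of different probe sets are not on 1 scale. Nes minus Vim was -1.30, -0.87 and -1.11 in 4ET-IP 1 to 3, -1.42, -1.76 and -1.85 in IgG-IP 2 to 4, and -2.61, -2.85, -2.63 and -2.97 in input 1 to 4. The 3 groups did not overlap. The mean was -1.09 ± 0.22 (SD, n = 3) in 4ET-IP, -1.68 ± 0.23 (SD, n = 3) in IgG-IP and -2.76 ± 0.17 (SD, n = 4) in input. The 4ET-IP mean exceeded that of input by 1.67, and the IgG-IP mean by 1.09 (two-sided exact permutation p = 0.0571 each, 0.0857 adjusted over the 3 comparisons, and 0.0571 is the smallest p that 3 against 4 allows). In both precipitates every sample had Nes above and Vim below all inputs. The choice of this pair therefore fixed these p-values, and nothing is concluded from them. Between the precipitates it differed by 0.58 (exact permutation p = 0.100, the smallest that 3 against 3 allows). In IgG-IP over input the fitted difference of Vim was -0.91 and that of Nes 0.17. Over the alternatives added for this pair, which left out arrays or used the second Vim probe set, the differences stayed between 1.56 and 2.11, 0.96 and 1.47, and 0.47 and 0.71.

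**Figure D2:**
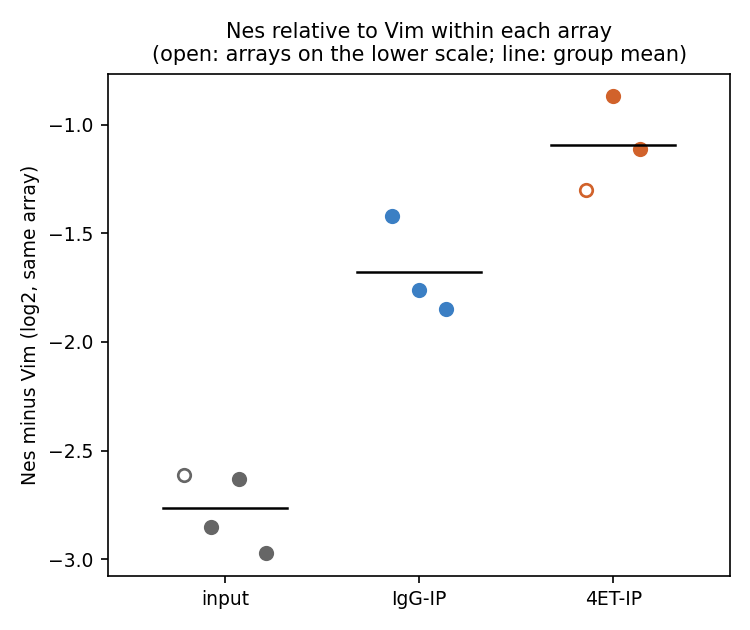
Log2 difference of Nes minus Vim on the same array (vertical axis) in the 3 groups, with a line at the group mean and open circles for the lower-scale arrays. The inputs lie at -2.97 to -2.61, IgG-IP at -1.85 to -1.42 and 4ET-IP at -1.30 to -0.87, without overlap.

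Of 11 other intermediate filament genes measured, 0 were called in 4ET-IP over IgG-IP (1 had an unadjusted p under 0.05) and 0 in 4ET-IP over input (3 had). Nefm, a neurofilament gene, was at 0.56 ± 0.19 and Ina, encoding internexin, at -0.26 ± 0.21 in 4ET-IP over IgG-IP (adjusted p = 0.0916 and 0.525), the ends of a range with a median of 0.04. Their ends in 4ET-IP over input were Nefm at 0.38 ± 0.17 and Lmnb1 at -0.58 ± 0.20. In IgG-IP over input Lmnb1, a nuclear lamin gene, was the 1 gene called, at -0.78 ± 0.20 (adjusted p = 0.0204).

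Slc1a3 encodes GLAST, the glutamate transporter of radial glia and astrocytes. Its level was 6.40, 6.51 and 7.14 in 4ET-IP 1 to 3, 6.14, 5.97 and 5.32 in IgG-IP 2 to 4, and 6.28, 6.0, 6.15 and 5.91 in input 1 to 4. All 4ET-IP samples were above all others, by a margin set by 4ET-IP 1 on 1 side and input 1 on the other, and IgG-IP overlapped input. Slc1a3 was higher by 0.90 ± 0.25 in 4ET-IP than in IgG-IP, or 1.86-fold (adjusted p = 0.0436). Its difference was 0.61 ± 0.23 over input (95% interval 0.11 to 1.10, adjusted p = 0.0874) and -0.29 ± 0.23 in IgG-IP over input (95% interval -0.80 to 0.22, adjusted p = 0.471), and neither was called. The rise over IgG-IP was smaller without 4ET-IP 3, its highest sample (0.59, adjusted p = 0.262), and without IgG-IP 4, the lowest (0.65, 0.106). Without input 2, input 3, 4ET-IP 2 or IgG-IP 3 the call was lost but the difference was 0.89 to 1.03 (adjusted p from 0.0606 to 0.0907). The call was also lost with group as the only term (0.87, 0.167) and with the replicate number as a block (0.76, 0.0514). Over input, leaving out IgG-IP 4 brought a call (0.61, adjusted p = 0.0386), and leaving out 4ET-IP 3 lowered the difference to 0.34 (0.446).

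The other transporters of the SLC1 family and glutamine synthetase were read beside it. Of 7 measured genes, Slc1a4, a neutral amino acid transporter gene, rose in 4ET-IP over IgG-IP (0.75 ± 0.15, adjusted p = 0.00921), and the median of the 7 was -0.19. In 4ET-IP over input Glul, the glutamine synthetase gene, rose (0.70 ± 0.15, adjusted p = 0.00520). In IgG-IP over input Glul and Slc1a2 rose (0.93 ± 0.15 and 0.47 ± 0.13) and Slc1a4 fell by 0.47 ± 0.14 (adjusted p = 0.00137, 0.0235 and 0.0379).

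Fabp7 encodes brain lipid-binding protein, a fatty acid carrier of radial glia. Its samples ran from 10.56 to 11.03 in 4ET-IP, 11.07 to 11.31 in IgG-IP and 10.78 to 11.45 in input. The 4ET-IP samples were below all IgG-IP samples, with input 1 the lowest input. The differences were -0.16 ± 0.14 in 4ET-IP over IgG-IP (95% interval -0.47 to 0.14), -0.34 ± 0.12 over input and -0.18 ± 0.13 in IgG-IP over input (adjusted p = 0.561, 0.0838 and 0.420). None was called, and the first turned to 0.11 after centring and the third to 0.02 after quantile normalization. The second was called when the variance was modelled with a trend (adjusted p = 0.00830) and among the genes above the median level (0.0342).

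Dbi encodes the acyl-CoA-binding protein, which carries acyl-CoA esters and is also the source of peptides that act on GABA-A receptors. It had 7.28, 6.68 and 6.89 in 4ET-IP 1 to 3, 6.57, 6.59 and 7.09 in IgG-IP 2 to 4, and 7.44, 7.61, 7.36 and 8.06 in input 1 to 4. Both precipitates were below all inputs, the nearest samples being 4ET-IP 1 at 7.28 and input 3 at 7.36. Dbi fell by 0.68 ± 0.21 in 4ET-IP against input (1.60-fold lower, adjusted p = 0.0418). In IgG-IP it fell by 0.84 ± 0.22 (1.79-fold lower, adjusted p = 0.0202). The precipitates differed by 0.16 ± 0.24 (95% interval -0.36 to 0.68, adjusted p = 0.757). The fall in 4ET-IP lost its call without input 2, input 4, 4ET-IP 2 or 4ET-IP 3, with differences of -0.67 to -0.52 (adjusted p from 0.0870 to 0.218). The fall in IgG-IP lost its call without input 2, input 4, IgG-IP 2 or IgG-IP 3, at -0.83 to -0.64 (0.0569 to 0.0696). Centring and quantile normalization also ended the call in 4ET-IP, at -0.54 and -0.64 (0.366 and 0.125).

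Among 14 other fatty acid and acyl-CoA binding genes, which include the mitochondrial translocator gene Tspo, 2 rose and 0 fell in 4ET-IP over IgG-IP. They were Acbd3, encoding a Golgi protein (0.60 ± 0.14), and Acbd6 (0.60 ± 0.16), with adjusted p of 0.0183 and 0.0306. Against input Acbd6 fell in both precipitates, by 0.58 ± 0.14 in 4ET-IP and 1.18 ± 0.14 in IgG-IP (adjusted p = 0.0105 and 2.60e-04). Fabp3 fell by 0.94 ± 0.16 in 4ET-IP against input (adjusted p = 0.00159), where Acbd3 rose by 0.53 ± 0.12 (0.00990).

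**Figure D3:**
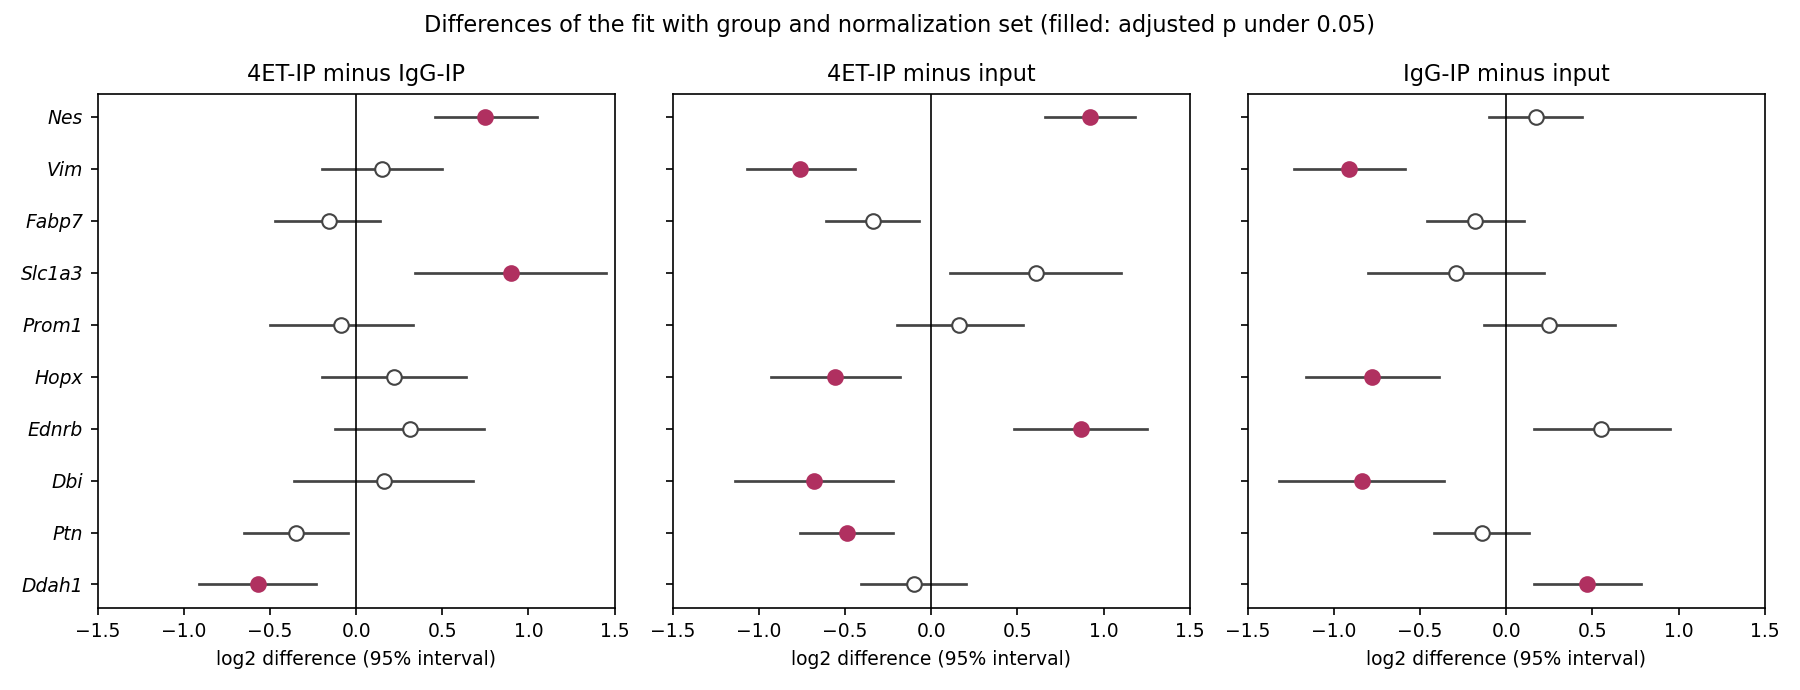
Log2 difference (horizontal axis) of each of the 10 genes in the 3 comparisons, with 95% intervals of the limma fit with terms for group and lower-scale arrays; filled points have an adjusted p under 0.05. Nes and Slc1a3 are called on the right and Ddah1 on the left in 4ET-IP minus IgG-IP, and Vim, Hopx and Dbi are called on the left in both comparisons with input.

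Ednrb encodes the endothelin B receptor, a G protein-coupled receptor of radial glia, astrocytes, neural crest and endothelium. It stood at 7.38, 8.18 and 8.46 in 4ET-IP 1 to 3, 8.12, 7.90 and 7.67 in IgG-IP 2 to 4, and 6.95, 7.11, 7.50 and 7.20 in input 1 to 4. Both precipitates were above input on the 8 arrays of common scale, and 4ET-IP 1, which lay within the range of input, was above input 1, the other lower-scale array. Ednrb was higher by 0.87 ± 0.17 in 4ET-IP than in input, or 1.82-fold (adjusted p = 0.00425), and its call was kept without any 1 array (0.72 to 1.04). With group as the only term the call ended (0.81, adjusted p = 0.104). In IgG-IP the difference from input was 0.55 ± 0.18 (95% interval 0.16 to 0.95, adjusted p = 0.0571). It was called in the 8 arrays (0.62, adjusted p = 0.0330), with the replicate number as a block (0.56, 0.0430) and after quantile normalization (0.66, 0.0260). It was not called after centring (0.39, 0.270), with group as the only term (0.70, 0.175) or without input 2 (0.45, 0.177). The 2 precipitates differed by 0.31 ± 0.20 (4ET-IP minus IgG-IP, 95% interval -0.12 to 0.74, adjusted p = 0.389).

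Of 9 endothelial markers, Kdr and Emcn rose in 4ET-IP over IgG-IP (1.48 ± 0.22 and 0.78 ± 0.18). In 4ET-IP over input Kdr rose (1.37 ± 0.19) and Emcn fell by 0.69 ± 0.16, and in IgG-IP over input 0 rose and 4 fell, with Emcn at -1.46 ± 0.16 and Cdh5 at -0.82 ± 0.21. Their summed linear level on the 8 arrays was 309.8 to 345.4 in 4ET-IP, 201.7 to 238.4 in IgG-IP and 301.5 to 345.8 in input. The part of endothelial RNA in the Ednrb result was not tested. Of 5 endothelin genes measured, 0 were called in 4ET-IP over IgG-IP (2 with an unadjusted p under 0.05). Ece1 and Ece2, endothelin-converting enzyme genes, went opposite ways in 4ET-IP over input (0.76 ± 0.24 and -0.60 ± 0.15, adjusted p = 0.0423 and 0.0125), and Ece2 fell by 0.96 ± 0.15 in IgG-IP against input (0.00115).

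Prom1 encodes prominin-1, or CD133, a membrane protein of apical protrusions and precursor cells. It ranged from 7.54 to 8.15 in 4ET-IP, 7.86 to 8.21 in IgG-IP and 7.45 to 7.98 in input, and all groups overlapped. No comparison was called, with differences of -0.09 ± 0.19 in 4ET-IP over IgG-IP, 0.16 ± 0.17 over input and 0.25 ± 0.17 in IgG-IP over input (adjusted p = 0.848, 0.622 and 0.400). The 95% intervals were -0.50 to 0.33, -0.20 to 0.53 and -0.13 to 0.63, and the first difference turned to 0.26 after centring. Of 12 genes of the apical junction and polarity machinery, 1 rose and 0 fell in 4ET-IP over IgG-IP. It was Numb, an endocytic adaptor and Notch antagonist gene, at 0.89 ± 0.20 (adjusted p = 0.0156). Over input Pard6b (1.07 ± 0.17), Numb (0.64 ± 0.18) and Arhgef2 (0.61 ± 0.18) rose in 4ET-IP, and Afdn, which encodes the junction protein afadin, rose in IgG-IP (0.59 ± 0.14).

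Ptn encodes pleiotrophin, a secreted heparin-binding growth factor. Its level was 9.81, 9.77 and 9.91 in 4ET-IP 1 to 3, 10.24, 10.23 and 10.22 in IgG-IP 2 to 4, and 10.13, 10.33, 10.51 and 10.36 in input 1 to 4. All 4ET-IP samples were below all others, and IgG-IP overlapped input only through input 1. Ptn fell by 0.49 ± 0.12 in 4ET-IP against input (1.40-fold lower, adjusted p = 0.0143). That call was lost without 4ET-IP 2 (-0.42, adjusted p = 0.0988) or 4ET-IP 3 (-0.51, 0.0553), and after centring (-0.37, 0.385) or quantile normalization (-0.31, 0.185). Against IgG-IP the difference was -0.35 ± 0.14 (95% interval -0.65 to -0.05) and was not called (adjusted p = 0.146). It was called with a trend in the variance (adjusted p = 0.0353) and turned to 0.04 after centring. The difference of IgG-IP from input was -0.14 ± 0.13 (95% interval -0.42 to 0.13, adjusted p = 0.528).

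Genes for the relative and the receptors of pleiotrophin were divided. Of 10, Sdc1, a syndecan gene, rose in 4ET-IP over IgG-IP (0.99 ± 0.23, adjusted p = 0.0173), and 3 fell. These were Lrp1 (-0.91 ± 0.18), the receptor phosphatase gene Ptprs (-0.83 ± 0.17) and Ptprz1, the phosphatase receptor that binds pleiotrophin (-0.56 ± 0.14), with adjusted p of 0.00766, 0.00999 and 0.0252. Mdk, encoding the related factor midkine, fell against input in both precipitates, by 0.68 ± 0.18 in 4ET-IP and 0.86 ± 0.19 in IgG-IP (adjusted p = 0.0212 and 0.00822). In 4ET-IP over input Sdc1 (0.83 ± 0.20) and Sdc3 (0.76 ± 0.22) also rose and Ptprs fell by 0.56 ± 0.15. Ptprz1 and Lrp1 rose in IgG-IP over input (0.89 ± 0.13 and 0.72 ± 0.16).

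Ddah1 encodes dimethylarginine dimethylaminohydrolase, which breaks down asymmetric dimethylarginine, an inhibitor of nitric oxide synthases. It had 9.40, 10.20 and 10.43 in 4ET-IP 1 to 3, 10.70, 10.89 and 10.94 in IgG-IP 2 to 4, and 9.68, 10.17, 10.44 and 10.43 in input 1 to 4. The IgG-IP samples were above all others, while 4ET-IP and input overlapped and their lower-scale arrays were the lowest of each. Ddah1 was lower by 1.49-fold in 4ET-IP than in IgG-IP, at -0.57 ± 0.15 (adjusted p = 0.0360), and higher by 1.38-fold in IgG-IP than in input, at 0.47 ± 0.14 (adjusted p = 0.0424). In 4ET-IP over input it was at -0.10 ± 0.14 (95% interval -0.41 to 0.20, adjusted p = 0.720), which turned to 0.02 after quantile normalization. The fall against IgG-IP was not called in the 8 arrays (-0.53, adjusted p = 0.0759), after centring (-0.39, 0.157) or with group as the only term (-0.83, 0.234). The fits without input 1 or without 4ET-IP 1 equal that of the 8 arrays. Fits without input 3, IgG-IP 3, IgG-IP 4, 4ET-IP 2 or 4ET-IP 3 also lost the call, with differences of -0.68 to -0.52 (adjusted p from 0.0541 to 0.168). The call in IgG-IP over input was lost without input 2, 3 or 4, 4ET-IP 2, or IgG-IP 3 or 4, at 0.38 to 0.49 (0.0676 to 0.144), and after centring (0.35, 0.202).

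The other genes of methylarginine and nitric oxide metabolism were read beside Ddah1. Of 11, 0 were called in 4ET-IP over IgG-IP (1 with an unadjusted p under 0.05), from Ddah2 at -0.35 ± 0.23 to Asl at 0.03 ± 0.21. Ddah2, the paralog of Ddah1, fell against input by 1.10 ± 0.20 in 4ET-IP and 0.75 ± 0.21 in IgG-IP (adjusted p = 0.00244 and 0.0284). Prmt1, encoding the arginine methyltransferase at the head of this route, fell by 1.07 ± 0.13 and 0.72 ± 0.13 (adjusted p = 2.06e-04 and 0.00273), and Asl by 0.77 ± 0.19 and 0.81 ± 0.19.

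Hopx encodes a small homeodomain protein that lacks DNA binding and marks a subset of radial glia. It was at 5.27, 5.62 and 5.77 in 4ET-IP 1 to 3, 5.94, 5.30 and 5.45 in IgG-IP 2 to 4, and 5.47, 6.43, 6.30 and 6.46 in input 1 to 4. On the 8 arrays of common scale both precipitates were below input, and input 1 was far below the other inputs. Hopx fell by 0.56 ± 0.17 in 4ET-IP against input (1.47-fold lower, adjusted p = 0.0399). In IgG-IP it fell by 0.78 ± 0.18 (1.71-fold lower, adjusted p = 0.0102). The precipitates differed by 0.22 ± 0.19 (95% interval -0.20 to 0.64, adjusted p = 0.561), a difference of -0.01 with group as the only term. The fall in IgG-IP was called without any 1 array. The call in 4ET-IP was lost without input 2, 3 or 4 or 4ET-IP 2 or 3, at -0.57 to -0.46 (adjusted p from 0.0754 to 0.203). It was also lost with the replicate number as a block (-0.55, 0.0528) and after centring (-0.48, 0.150) or quantile normalization (-0.50, 0.0827).

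The 10 genes can be set against 25 other radial glia genes, among them transcription factors, receptors and adhesion proteins. Of these, 7 rose and 1 fell in 4ET-IP over IgG-IP, with a median of 0.42. The median was 0.03 for all genes, 0.14 for genes above the median level and 0.16 for the 10. The largest were the Notch effector gene Hes5 (1.85 ± 0.17) and the precursor factor genes Sox2 (1.06 ± 0.17) and Emx2 (0.90 ± 0.18), followed by Fam107a (0.85 ± 0.18), with adjusted p from 1.61e-04 to 0.0106. In 4ET-IP over input 11 rose and 1 fell, with Hes5 at 2.38 ± 0.15, Sox2 at 1.21 ± 0.15 and Hes1 at 0.99 ± 0.15. The gene that fell was Aldoc, a glycolytic enzyme gene, by 1.34 ± 0.22, and it also fell in IgG-IP, by 0.91 ± 0.23. In IgG-IP over input 5 rose, led by Glul and Ptprz1 (0.93 ± 0.15 and 0.89 ± 0.13), and 3 fell, among them Pdpn (-0.77 ± 0.21). A difference between this list and the 10 genes was not tested.

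**Figure D4:**
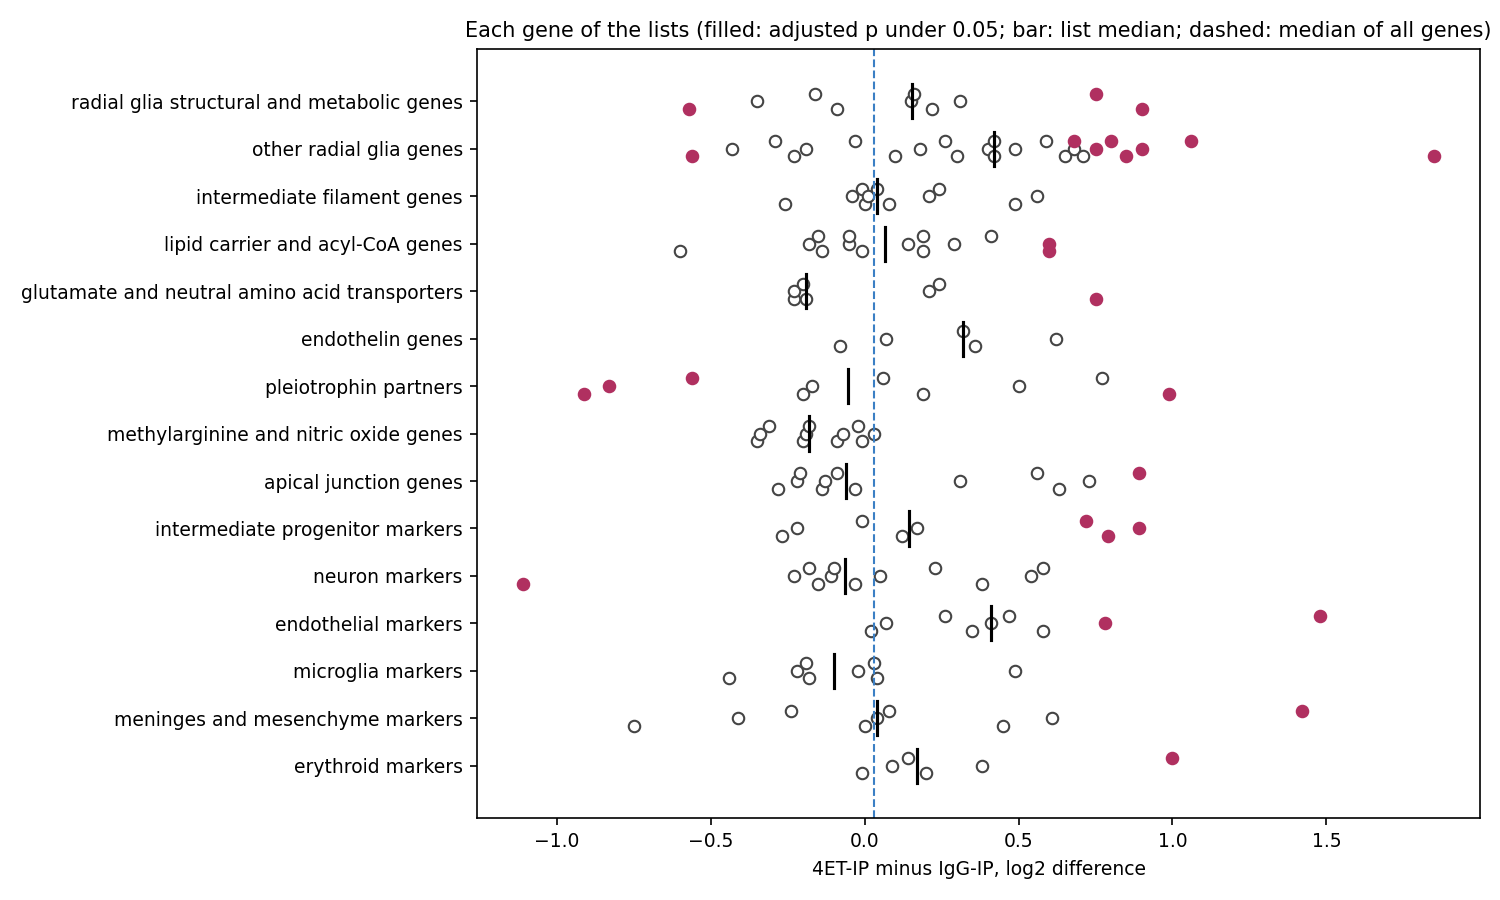
Log2 difference of 4ET-IP minus IgG-IP (horizontal axis) of each gene of the 15 lists (vertical axis), with filled points at an adjusted p under 0.05, a bar at each list's median and a dashed line at the median of all genes, 0.03. The 10 genes described here run from -0.57 to 0.90, and the other radial glia genes from -0.56 to 1.85.

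Markers of other cell types in the cortex also differed between the groups. Of 8 intermediate progenitor markers Neurod4, Gadd45g and Neurog2 rose in 4ET-IP over IgG-IP (0.89 ± 0.21, 0.79 ± 0.21 and 0.72 ± 0.16). In 4ET-IP over input 5 rose, led by Neurod4 (1.25 ± 0.19) and Neurog2 (1.10 ± 0.14), and 2 fell, Gadd45g (-0.95 ± 0.19) and Mfap4 (-0.67 ± 0.16). In IgG-IP over input 3 rose, led by Btg2 (0.87 ± 0.17), and 1 fell, Gadd45g (-1.74 ± 0.20). The summed linear level of these markers on the 8 arrays was 3755.1 to 3773.0 in 4ET-IP, 3367.9 to 3513.9 in IgG-IP and 2700.5 to 3030.7 in input. Of 12 neuron markers Dcx, a microtubule protein gene of migrating neurons, fell in 4ET-IP over IgG-IP (-1.11 ± 0.21, adjusted p = 0.00605), and the summed level overlapped (5447.8 to 6026.6, 5251.1 to 7101.6 and 5715.2 to 8212.6). Dcx rose in IgG-IP over input (0.89 ± 0.19) and was not called in 4ET-IP over input (-0.22 ± 0.18). In 4ET-IP over input 4 neuron markers rose, among them Bcl11b (0.64 ± 0.18), and 2 fell, Stmn2 (-1.31 ± 0.19) and Snap25 (-0.90 ± 0.24). In IgG-IP over input 3 rose and 3 fell, with Stmn2 at -1.54 ± 0.19. Of 8 microglia markers 0 were called in 4ET-IP over IgG-IP (2 with an unadjusted p under 0.05), with sums of 360.7 to 375.1, 292.0 to 374.6 and 283.1 to 315.1. Against input Cx3cr1 rose in both precipitates (1.21 ± 0.16 in 4ET-IP and 0.71 ± 0.16 in IgG-IP), and C1qb fell in 4ET-IP (-0.70 ± 0.16). In 4ET-IP over IgG-IP the transcription factor gene Foxc1 rose among 9 meningeal and mesenchymal markers (1.42 ± 0.15), with sums of 275.1 to 298.8, 241.6 to 305.0 and 185.1 to 279.3. Against input Foxc1 rose in 4ET-IP (1.36 ± 0.13) and Dcn fell in IgG-IP (-1.09 ± 0.22). Slc4a1 rose among 6 erythroid markers measured in 4ET-IP over IgG-IP (1.00 ± 0.21), with sums of 1804.4 to 1985.3, 1246.2 to 2107.9 and 1952.7 to 3215.2. Against input Slc4a1 rose in 4ET-IP (0.93 ± 0.19), and Hba-x fell in 4ET-IP (-0.48 ± 0.15) and in IgG-IP (-0.85 ± 0.15). The part of these cell types in the results above was not tested.

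The genes closest in pattern to the highest and the lowest of the 10 differences between the precipitates were found by Pearson correlation over the 10 arrays, once the lower-scale difference was removed. Closest to Slc1a3 were Kctd10 (r = 0.983), Lpar2, a lysophosphatidic acid receptor gene (r = 0.974), and Pde12 (r = 0.973), at 0.36, 0.86 and 0.94 in 4ET-IP over IgG-IP. Closest to Ddah1 were Pramel47 (r = 0.973), Cacfd1 (r = 0.971) and Dcx (r = 0.959), at -0.54, -0.58 and -1.11. Predicted, clone-named, microRNA and snoRNA genes were left out of this ranking. These are the highest values among the remaining genes over arrays that share 3 groups, and they are given as a description.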

How the data were processed

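The deposited values are log2 intensities that the authors made with RMA (background correction, quantile normalization and probe summary) with the Expression Console software of Affymetrix, per the submitters' processing notes; versions and genome build are not given in the sources used here. Of 41345 probe sets, 23521 carried 1 gene symbol in the platform annotation, 1814 several and 16010 none. Single-symbol probe sets were used, with the highest mean per gene (22180 genes, 22139 of them in the RefSeq gene table of GRCm38.p6). There were no detection calls and no filter on dim genes, and precision is set by how many arrays there are. Arrays with a median more than 0.5 below the median of the array medians formed the lower-scale set.

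Genes were fitted with limma 3.58.1 in R 4.3.3 (lmFit, eBayes) on all 10 arrays with terms for group and set. The fit was run on simulated data with the additive set shift that it assumes. That run cannot show how well the set term handles the real lower-scale arrays. Exact permutation tests used SciPy 1.17.1, and figures matplotlib 3.10.9. P-values measure only the spread between these samples. The 10 genes, the 14 other lists, the set term and the rule for named genes were chosen with earlier results of these data known. That rule took all 10 genes, and from each other list up to 4 called genes with the largest differences, or the ends of the range where none was called. It also took the 3 genes closest in pattern to the highest and lowest of the 10, with predicted, clone-named, microRNA and snoRNA genes left out. Cdh2, Glul, Ptprz1 and Slc1a2 are in 2 lists.

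Equal replicate numbers were checked for pairing. Deviations from group means correlated at 0.62, 0.24 and 0.28 for 4ET-IP and input over the 10 arrays, the first being the 2 lower-scale arrays. Unequal numbers gave -0.45 to -0.29 where 1 array was lower-scale and 0.19 to 0.27 where neither was. In the 8 arrays the deviations of equal numbers correlated at 0.044 and 0.0085, and those of unequal numbers at -0.044 to 0.029. For IgG-IP and input the values were -0.023, 0.080 and 0.32 over 10 arrays, and 0.137, 0.091 and 0.247 in the 8, where unequal numbers gave -0.197 to 0.076. Group and set stayed the terms of the fit, and the block was an alternative.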

Additional observations from a re-analysis of the deposited data

Results flagged for a closer look

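Hopx on input 1 stood apart from the other inputs. It was at 5.47 there and at 6.30 to 6.46 on inputs 2, 3 and 4, and the gap to the nearest of these was 0.842 of the group's range, above Dixon's 95% limit for 4 samples. Input 1 is a lower-scale array. Chance gives such a flag in about 1 in 20 groups, and 10 were looked at, the input values of each of the 10 genes. Without input 1, a fit in which the set term also takes up 4ET-IP 1 and which equals that of the 8 arrays, Hopx was at -0.70 in 4ET-IP over input and at -0.84 in IgG-IP over input, with both calls kept.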

How the results depend on the processing

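With 3 or 4 arrays a group, precision is limited, and 2 arrays lie on another scale, so calls depend on how that scale is handled. No called difference of the 10 genes changed sign in any alternative. Uncalled ones that did were, in 4ET-IP over IgG-IP, Fabp7 (0.11), Prom1 (0.26) and Ptn (0.04) after centring and Hopx (-0.01) with group as the only term. The others were Ddah1 in 4ET-IP over input (0.02) and Fabp7 in IgG-IP over input (0.02) after quantile normalization, and Nes in IgG-IP over input (-0.13) after centring. For 4ET-IP over IgG-IP, 4ET-IP over input and IgG-IP over input, genes called numbered 2326, 4274 and 3688. With group as the only term they numbered 299, 1361 and 1206, and 0, 2 and 1 of the 10 genes were called, in place of 3, 6 and 4. For 4ET-IP over input, centring gave 2474 genes and 2 of the 10, and quantile normalization 3392 genes and 2 of the 10. Leaving out 1 array gave 930 to 2268 genes and 1 to 3 of the 10 in 4ET-IP over IgG-IP, 2703 to 4679 and 3 to 7 over input, and 2612 to 3471 and 2 to 5 in IgG-IP over input. The lowest counts over all genes came without 4ET-IP 2, 4ET-IP 2 and input 3. In IgG-IP over input 2 of the 10 were called without input 2, input 4 or IgG-IP 3. With the replicate number as a block 2454, 4510 and 4120 genes and 2, 5 and 5 of the 10 were called, so the block lost Slc1a3 over IgG-IP and Hopx over input, gained Ednrb in IgG-IP over input, and changed no other call of the 10. Averaging probe sets, testing only genes above the median level and a trend in eBayes kept all 13 calls. Testing genes above the median level added limma calls of Fabp7 and Slc1a3 in 4ET-IP over input and Ednrb in IgG-IP over input (adjusted p = 0.0342, 0.0474 and 0.0290). The trend added Ptn in 4ET-IP over IgG-IP, Fabp7 in 4ET-IP over input and Ednrb in IgG-IP over input (adjusted p = 0.0353, 0.00830 and 0.0409).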
